A study of Homo sapiens with 7 samples.

Results

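Cytosolic ribosomal protein genes and their paralogs were followed through 3 culture conditions. Members were taken as every gene of the deposited table with a symbol of RPL or RPS and a number, together with RPLP0, RPLP1, RPLP2 and RPSA. RPS6K kinases, RPS27L and genes beginning RPS4Y were left out by the rule, as were 3 read-through genes with hyphenated symbols. This gave 85 of 19978 genes: 46 main genes of the large subunit, 31 main genes of the small subunit, 7 paralogs, and RPS19BP1, which matches the letters but encodes a protein that binds RPS19 and is no ribosomal protein. Of the 85, 84 passed the filter on low counts, and RPL10L did not. The 14863 genes that passed it are the background of every test.

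The ribosome of the cytosol is built from ribosomal RNA and a fixed set of proteins, most of them present in 1 copy per particle. Proteins named RPL belong to the large subunit, which forms peptide bonds, and proteins named RPS to the small subunit, which reads the mRNA. The mRNAs of most of these proteins begin with a C followed by a run of C and T, the terminal oligopyrimidine (TOP) tract, through which growth signals such as mTOR control their translation. Several members have paralogs with an L in their names, a number of which are known for expression in particular tissues such as testis or muscle.

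The cells were HEK-293, an established line of human embryonic kidney origin, kept for 48 h before poly(A) RNA was sequenced. They were held in medium of pH 7.4 with the vehicle DMSO as control (2 samples), in medium of pH 7.4 with 10 µM SRPIN340, an inhibitor of the SRPK kinases that phosphorylate splicing factors (2 samples), or in medium acidified to pH 6.6 with DMSO (3 samples). By the study's methods DMSO was at the same share in all groups. All groups were the same line without a genetic change. The labels number the samples of a group, and the study's methods call them biological repeats, each run in replicates, without saying whether a repeat was a culture of its own. The p-values measure the spread between these samples. Library totals were 13615944 to 24110439 rounded counts, lowest in acidosis replicate 2, and every replicate pair differed by more than counting noise. PAX2, LHX1 and EYA1, markers of the embryonic kidney lineage of this line, were detected in every sample, with up to 196, 432 and 420 estimated counts. The neurofilament genes NEFL and NEFM were too, with up to 3084 and 1171. Of the markers of other lineages, CD3E (T cells) was listed at 0 in all 7. PTPRC, PECAM1 and DCN were above 0 in every sample, with at most 11.6, 28.1 and 8.77 counts. CDH5 and ALB had 0 as their lowest value and reached 1.66 and 13.9 counts. Detection alone therefore does not separate these lineages.

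The letters at the start of these genes are shown first, because the TOP tract is the sequence for which these mRNAs are known. Each line gives the 10 bases before an annotated RefSeq transcript start and the 20 bases from it, on the gene's strand, 5′ to 3′, in GRCh38.p14. Capitals mark the unbroken run of C and T that begins with a C at the start, and a window without capitals has no C at that base. The 20 bases open the transcript and the 10 before it are promoter sequence. RPL10, RPL11 and RPL26L1 have more than 1 listed start, and the start with the longest run is shown. The set holds a choice of the members whose mRNA differed most and least between acidosis and control, and every paralog with a listed start, beside its main gene where that has one, which RPL7 does not. It was chosen with the values known, so the share of windows with a tract in it is no result.
RPL39 (chrX:119791611-119791640, minus strand): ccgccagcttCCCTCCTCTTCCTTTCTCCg
RPL22 (chr1:6199576-6199605, minus strand): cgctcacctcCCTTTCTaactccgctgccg
RPL12 (chr9:127451387-127451416, minus strand): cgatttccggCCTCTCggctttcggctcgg
RPL3 (chr22:39319604-39319633, minus strand): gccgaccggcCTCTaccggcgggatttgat
RPLP1 (chr15:69452808-69452837, plus strand): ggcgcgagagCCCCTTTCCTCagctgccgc
RPS12 (chr6:132814559-132814588, plus strand): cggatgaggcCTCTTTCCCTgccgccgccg
RPSA (chr3:39406710-39406739, plus strand): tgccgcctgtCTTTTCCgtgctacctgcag
RPS6 (chr9:19380217-19380246, minus strand): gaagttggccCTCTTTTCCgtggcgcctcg
RPS26 (chr12:56041908-56041937, plus strand): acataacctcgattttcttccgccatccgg
RPL14 (chr3:40457329-40457358, plus strand): ggtcttcttcCTTCTCgcctaacgccgcca
RPL13A (chr19:49487598-49487627, plus strand): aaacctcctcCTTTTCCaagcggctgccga
RPL11 (chr1:23691796-23691825, plus strand): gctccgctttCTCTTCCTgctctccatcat
RPL22L1 (chr3:170870176-170870205, minus strand): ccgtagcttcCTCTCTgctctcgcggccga
RPL26 (chr17:8383174-8383203, minus strand): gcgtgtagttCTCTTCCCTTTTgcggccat
RPL26L1 (chr5:172958719-172958748, plus strand): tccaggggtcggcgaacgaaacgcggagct
RPL36A (chrX:101391001-101391030, plus strand): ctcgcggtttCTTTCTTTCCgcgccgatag
RPL36AL (chr14:49620607-49620636, minus strand): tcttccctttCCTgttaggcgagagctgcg
RPL7L1 (chr6:42879606-42879635, plus strand): gtgcggcgccgtagctaggagcggacgcca
RPL10 (chrX:154398367-154398396, plus strand): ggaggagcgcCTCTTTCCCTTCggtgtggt
RPL10L (chr14:46651762-46651791, minus strand): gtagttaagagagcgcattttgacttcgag

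A start counted as TOP where the C was followed by at least 4 further letters that were each C or T. Of the 62 main genes with a listed start, 46 (74.2%) had such a tract at a listed start, 28 of 38 in the large subunit (73.7%) and 18 of 24 in the small subunit (75.0%). RPL39 had the longest run printed, with 19 letters, RPL22 had 7, RPL3 had 4 letters and so fell short of the rule, and RPS26 began with another base. Of 5 paralogs with a listed start, RPL22L1 alone had the tract, with 6 letters, while RPL36AL had 3, and RPL26L1, RPL7L1 and RPL10L began with another base. The tract was found at 6.79% of 11764 tested genes that are not members and at 4.07% of all 35116 RefSeq entries. A match describes the letters of an annotated start and does not show where transcription began in these cells.

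In acidosis, mRNA of every main ribosomal protein gene was higher than in control. All 77 passed the test (adjusted p under 0.05) in the higher direction, against 32.5% of all tested genes, and in all 77 the lowest acidosis sample lay above the highest control sample, against 37% of all tested genes. The log2 fold changes ran from 0.44 (RPL14) to 1.65 (RPL39), with a median of 1.22 and an interquartile range of 0.98 to 1.36, which is a median of 2.33-fold. The median over all tested genes was -0.052. A log2 fold change over 1 was reached by 56 of the 77, against 14.4% of all tested genes. Among the 85 members, 80 passed higher, and RPL7L1 was the 1 member that passed lower, against 34.2% of all tested genes.

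These values are relative to the typical gene and depend on the scaling. CPM here are counts relative to a library total after TMM scaling, which multiplied the totals by means of 1.18 (control), 1.21 (SRPIN340) and 0.79 (acidosis). The 100 non-member genes with the most counts were taken in each sample on its own, so they can differ between samples. They held 14.0% ± 0.12 of counts in control (SD, n = 2) and 22.2% ± 0.24 in acidosis (SD, n = 3). With total counts in place of TMM, the median of all genes in acidosis moved from -0.052 to -0.63 and the median of the main genes from 1.22 to 0.65, so that the gap between them stayed at 1.27. Under that scaling 74 of the 77 were fitted higher, 72 passed higher against 16.2% of all tested genes, 0 passed lower, and 5 did not pass: RPL14, RPL13A and RPL11, which had negative values, and RPL5 and RPS26. Of all tested genes, 55% passed lower under that scaling. Counts are relative within a library and measure neither cell number nor RNA per cell, so a change in either cannot be told from these bulk samples.

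As a plain share of all counts, with no scaling between genes, the 77 main genes held 8.87%, 8.21% and 8.88% of counts in acidosis, 5.38% and 5.97% in control, and 6.72% and 6.36% under SRPIN340. The acidosis samples stood above the other samples without overlap, and both SRPIN340 samples stood above both control samples. The group means were 5.67% ± 0.42 (SD, n = 2), 6.54% ± 0.26 (SD, n = 2) and 8.65% ± 0.38 (SD, n = 3). The plot of each main gene by sample shows the same order.

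**Figure D1:**
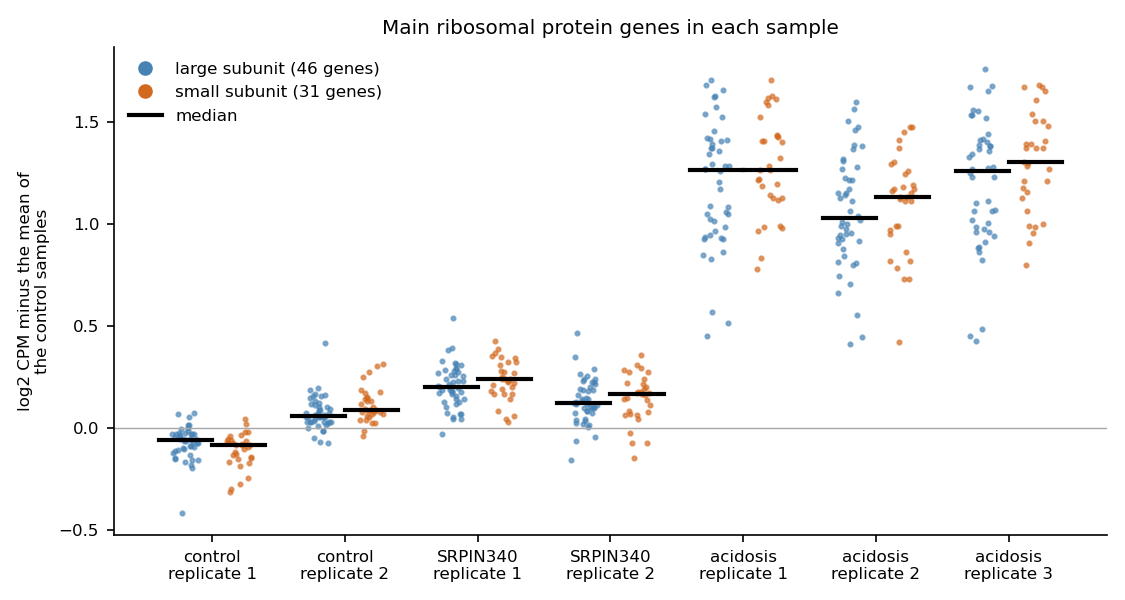
Level of each main ribosomal protein gene (points) in each of the 7 samples, as log2 CPM minus the mean of the control samples; blue is the large subunit, orange the small subunit, and the black lines are medians. The medians lie between -0.086 and 0.086 in control, at 0.12 to 0.24 under SRPIN340 and at 1.03 to 1.30 in acidosis, lowest there in replicate 2.

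The large subunit is described first. All 46 of its main genes passed higher and 31 exceeded a log2 fold change of 1, with a median of 1.18. RPL39, a very short protein that lines the tunnel through which the new peptide leaves, held 545 and 635 CPM in control, 710.4 and 691 CPM under SRPIN340, and 1918, 1633 and 1991 CPM in acidosis. That is 3.13-fold in acidosis, a log2 fold change of 1.65 ± 0.098 (SE, edgeR adjusted p = 4.30e-07), the highest value among all 77. RPL22, an RNA-binding protein near the tunnel exit, held 421 and 413 CPM in control, 479 and 448 CPM under SRPIN340, and 1287, 1261 and 1327 CPM in acidosis. Its samples in acidosis lay within a narrow range, and the contrast gave a log2 fold change of 1.63 ± 0.059 (SE, edgeR adjusted p = 2.57e-08). RPL12, at the base of the stalk that recruits elongation factors, held 422 and 423 CPM in control, 479.7 and 444 CPM under SRPIN340, and 1258, 1251 and 1325 CPM in acidosis, with a log2 fold change of 1.60 ± 0.061 (SE, edgeR adjusted p = 3.58e-08). RPL3, which reaches towards the peptidyl transferase centre, held 823 and 885 CPM in control, 1111 and 1023 CPM under SRPIN340, and 2631, 2349.7 and 2730.0 CPM in acidosis. Its SRPIN340 samples also stood above both controls, and acidosis against control gave a log2 fold change of 1.59 ± 0.078 (SE, edgeR adjusted p = 1.40e-07).

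At the other end of the large subunit, RPL14 held 358 and 370.3 CPM in control, 410.3 and 390.2 CPM under SRPIN340, and 499, 495 and 490.1 CPM in acidosis. Its acidosis samples were still all above the other samples, at 1.36-fold, a log2 fold change of 0.44 ± 0.056 (SE, edgeR adjusted p = 7.71e-05). RPL13A, often used as a reference gene, held 1045 and 1139.9 CPM in control, 1352 and 1289 CPM under SRPIN340, and 1556, 1452 and 1493 CPM in acidosis. Acidosis against control gave a log2 fold change of 0.46 ± 0.060 (SE, edgeR adjusted p = 9.55e-05), beside 0.27 with SRPIN340. RPL11, RPL7A and RPL5 followed, with log2 fold changes of 0.53, 0.81 and 0.85.

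By place in the large subunit, the 4 proteins of the P stalk, which binds elongation factors, all exceeded a log2 fold change of 1, from 1.28 for RPLP0 through 1.45 for RPLP2 and 1.57 for RPLP1 to 1.60 for RPL12. RPLP1, which sits on the stalk as a dimer with RPLP2, held 469 and 542 CPM in control, 547 and 515 CPM under SRPIN340, and 1619.5, 1431 and 1459.5 CPM in acidosis. The other extreme was the 5S ribonucleoprotein, in which RPL5 and RPL11 carry the 5S RNA and, when free of ribosomes, bind MDM2. RPL11 held 599 and 541 CPM in control, 629 and 587 CPM under SRPIN340, and 845, 836 and 796 CPM in acidosis, with a log2 fold change of 0.53 ± 0.066 (SE, edgeR adjusted p = 6.20e-05). RPL5 held 774 and 1014 CPM in control, 1061 and 1081 CPM under SRPIN340, and 1705, 1400.3 and 1722 CPM in acidosis, with a log2 fold change of 0.85 ± 0.12 (SE, edgeR adjusted p = 1.61e-04). Neither exceeded a log2 fold change of 1, and with total counts in place of TMM neither passed, RPL5 being at 0.27 (edgeR adjusted p = 0.0605). Of 9 proteins around the tunnel exit, all passed higher and 6 exceeded 1, with a range from 0.88 (RPL17) to 1.65 (RPL39) and a median of 1.17. These lists are small and were chosen with results known, and no difference between them was tested.

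In the small subunit all 31 main genes passed higher and 25 exceeded a log2 fold change of 1, with a median of 1.24. RPS12, in the head of the subunit, held 288 and 328 CPM in control, 392 and 372 CPM under SRPIN340, and 942, 854 and 980.3 CPM in acidosis, with a log2 fold change of 1.59 ± 0.083 (SE, edgeR adjusted p = 2.11e-07). RPSA, also known as the laminin receptor precursor, held 517 and 558 CPM in control, 569 and 528 CPM under SRPIN340, and 1624, 1490.5 and 1707 CPM in acidosis. It differed little between control and SRPIN340, and acidosis against control gave a log2 fold change of 1.58 ± 0.075 (SE, edgeR adjusted p = 1.20e-07). RPS2, at the channel by which mRNA enters, held 1325 and 1494 CPM in control, 1466 and 1271 CPM under SRPIN340, and 4350.3, 3846 and 4419.7 CPM in acidosis, with a log2 fold change of 1.58 ± 0.090 (SE, edgeR adjusted p = 3.37e-07). RPS27A, made as a fusion with ubiquitin, was at 2.79-fold.

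The lowest of the small subunit was RPS26, which contacts mRNA at the exit channel and held 169 and 248 CPM in control, 244 and 225 CPM under SRPIN340, and 365, 275 and 384 CPM in acidosis. Its replicates spread widely, acidosis replicate 2 lay closest to the controls, and the contrast gave a log2 fold change of 0.71 ± 0.17 (SE, edgeR adjusted p = 0.0046). With total counts in place of TMM it was at 0.13 and did not pass (edgeR adjusted p = 0.497). RPS6, the substrate of the S6 kinases, held 1015 and 991 CPM in control, 1126 and 1082 CPM under SRPIN340, and 1719.5, 1729 and 1742 CPM in acidosis. Its 3 acidosis samples were almost equal, with a log2 fold change of 0.79 ± 0.050 (SE, edgeR adjusted p = 7.08e-07). RPS15A, RPS3 and RPS7 had log2 fold changes of 0.89, 0.90 and 0.92. Along the mRNA channel, all 6 listed proteins passed higher and 4 exceeded 1, among them RPS2, RPS14 (1.34) and RPS28 (1.17). RPS19, mutated in Diamond-Blackfan anaemia, held 537 and 695 CPM in control, 705 and 628 CPM under SRPIN340, and 1619, 1339 and 1583 CPM in acidosis, with a log2 fold change of 1.30 ± 0.12 (SE, edgeR adjusted p = 8.85e-06).

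Proteins of the ribosome whose names the rule does not match were measured too. FAU, whose product yields a small subunit protein, passed higher with a log2 fold change of 1.31 ± 0.13 (SE), and RACK1, a scaffold on the small subunit, with 1.26 ± 0.072 (SE). RPS27L, a p53-inducible relative of RPS27 that the rule leaves out, fell, from 53.6 and 49.0 CPM in control to 13.8, 12.9 and 12.6 CPM in acidosis, with a log2 fold change of -1.97 ± 0.11 (SE, edgeR adjusted p = 2.79e-07).

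**Figure D2:**
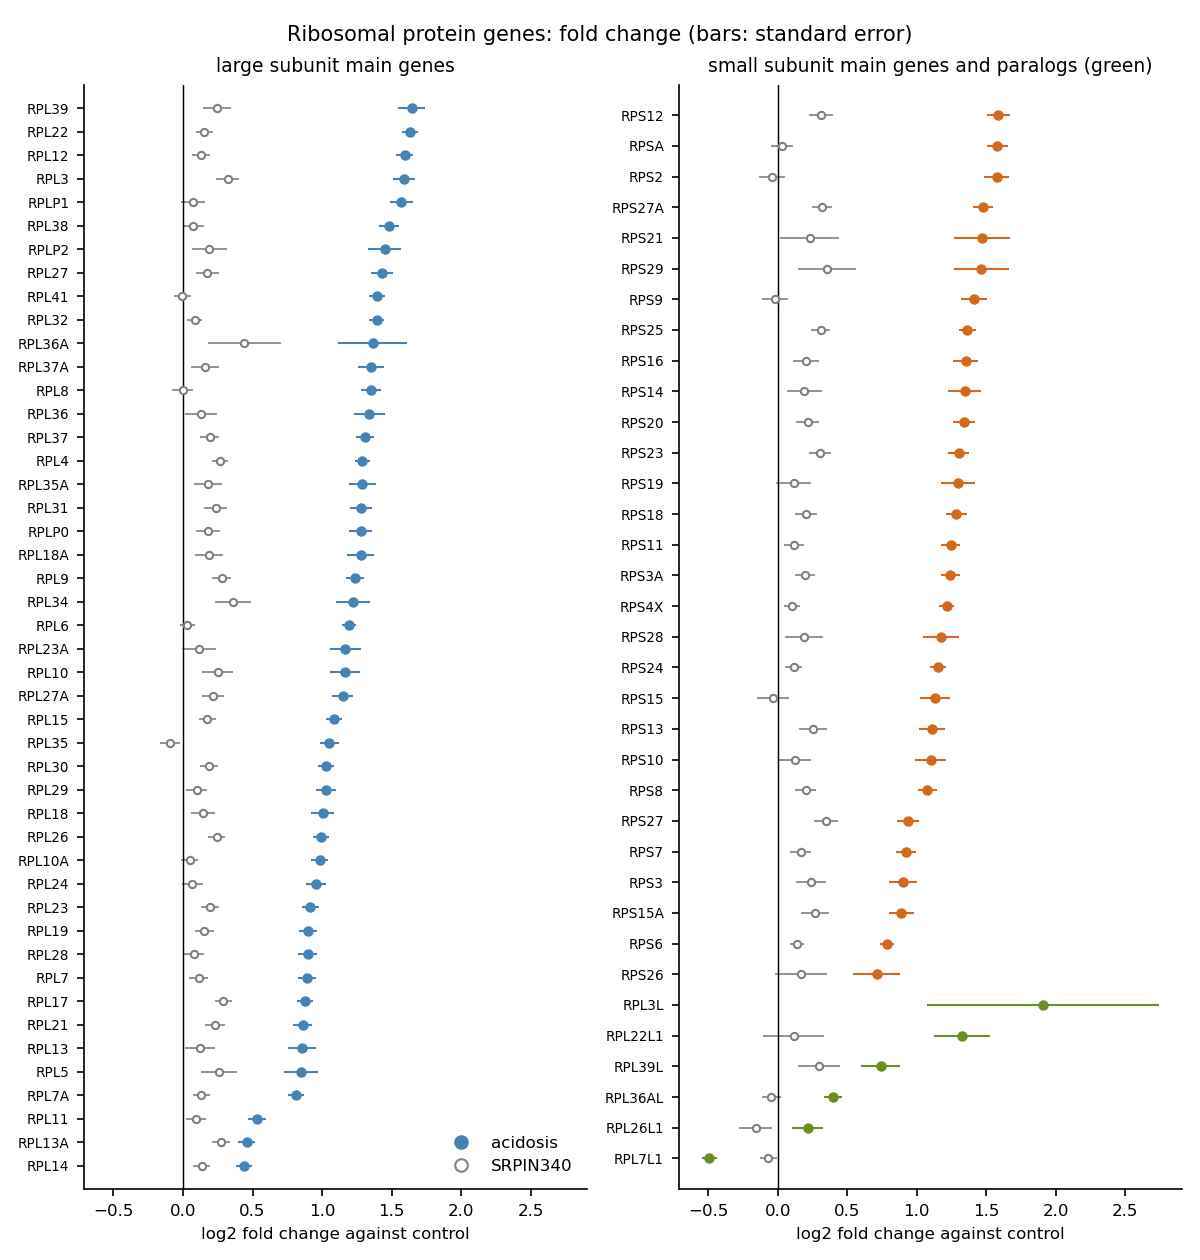
Log2 fold change against control of 81 tested ribosomal protein genes and paralogs in acidosis (filled points) and with SRPIN340 (open points), bars giving the standard error; the left panel holds the large subunit, the right panel the small subunit (orange) and the paralogs (green), and RPL3L is drawn for acidosis only because its SRPIN340 samples held 3 counts or fewer. Every main gene lies right of 0 in acidosis, from 0.44 to 1.65, and RPL7L1 lies left of it at -0.49.

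Set side by side, the median log2 fold change in acidosis was 1.18 in the large and 1.24 in the small subunit. The summed counts of large subunit genes were 1.47, 1.498 and 1.46 times those of small subunit genes in acidosis, against 1.59 and 1.55 times in control and 1.56 and 1.59 times under SRPIN340. The acidosis values lay below the others, a log2 difference of -0.088 to control, and 2 against 3 samples cannot give an exact two-sided permutation p below 0.2. The difference also depends on how genes are weighted. Taken as the median log2 CPM of large minus small subunit genes, acidosis minus control was 0.018. On that measure the groups overlapped, with 0.0015, 0.118 and 0.0058 in acidosis and 0.038 and 0.0099 in control. Acidosis replicate 2 stood apart there, so no reversal is read from it.

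Gene properties were set beside the fold changes in acidosis as a description across the 77 main genes. Spearman's rho with the log2 fold change was -0.34 for coding length, -0.26 for the number of exons and -0.17 for the mean level in the SRPIN340 samples, each over 77 genes that share the same libraries. The 28 main genes that hold a snoRNA had a median of 1.20 and the 49 without had 1.22. The 46 with the start tract had a median of 1.28, and the 16 with a listed start and no tract had 1.18. The order was not the same in both subunits. In the large subunit the medians were 1.19 with the tract and 1.22 without, and in the small subunit 1.30 and 1.15. Each main gene has at least 1 named pseudogene, up to 133 for RPL21, and reads could be split between such copies in the authors' quantification. In the annotation, 8 members overlap another coding gene on their strand, among them RPL17, RPL36A and RPS10 with their read-through genes, and their values are less certain. An antisense gene is annotated at 33 members, and the strand setting of the quantification is not given in the sources used here.

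Other genes were then set beside the main genes in classes of level and of coding length. By mean level in the SRPIN340 samples, the median log2 fold change of other genes was higher with level up to 300 to 1000 CPM and lower above that, while among main genes it ran from 1.32 at 100 to 300 CPM down to 1.00 over 1000 CPM. These samples are no part of the contrast. The 240 other genes at 300 to 1000 CPM had a median log2 fold change of 0.56 against 1.24 for 55 main genes, and the 31 other genes over 1000 CPM had 0.33 against 1.00 for 14 main genes. Grouped instead by the mean of all 7 samples, which includes the acidosis samples, the 69 other genes over 1000 CPM had a median of 1.24, equal to that of 31 main genes, and at 300 to 1000 CPM 369 other genes had 0.90 against 1.17 for 41 main genes. For coding lengths under 600 nucleotides the 1816 other genes had 0.38, and the 55 main genes had 1.28. The part of level and length in the result was not tested.

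**Figure D3:**
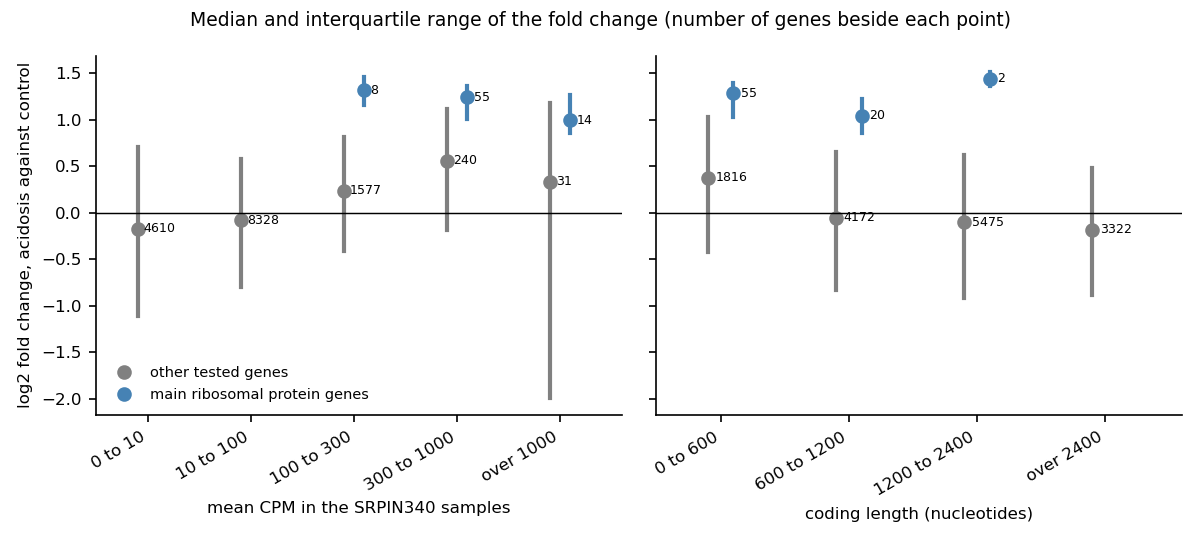
Median log2 fold change of acidosis against control (points) with the interquartile range (bars) for main ribosomal protein genes (blue) and all other tested genes (grey), by mean CPM in the SRPIN340 samples (left) and by coding length (right); numbers beside the points count genes. Main genes lie above the median of other genes in each class that holds both, as with 1.24 against 0.56 at 300 to 1000 CPM.

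Of the 6 paralogs tested in acidosis, 3 passed higher, against 32.5% of all tested genes, RPL7L1 passed lower, against 34.2%, and 2 did not pass. Over so few genes these counts are not read as a result about the paralogs. RPL7L1, a relative of RPL7 linked to assembly of the large subunit, held 514 and 522 CPM in control, 492 and 496 CPM under SRPIN340, and 354, 382 and 369.6 CPM in acidosis. The acidosis samples were the lowest, with a log2 fold change of -0.49 ± 0.057 (SE, edgeR adjusted p = 3.88e-05), while its main gene RPL7 held 623 and 567 CPM in control, 664 and 624 CPM under SRPIN340, and 1080.1, 1135 and 1099.7 CPM in acidosis. RPL36AL, whose protein is nearly identical to that of RPL36A, held 128 and 127 CPM in control, 124 and 123 CPM under SRPIN340, and 172, 166 and 167 CPM in acidosis, with a log2 fold change of 0.40 ± 0.064 (SE, edgeR adjusted p = 3.51e-04). RPL26L1 held 42.5 and 44.3 CPM in control, 39.5 and 38.3 CPM under SRPIN340, and 49.9, 44.7 and 56.7 CPM in acidosis, and its log2 fold change of 0.22 ± 0.11 (SE) did not pass (edgeR adjusted p = 0.112). With total counts in place of TMM, the values of RPL36AL and RPL26L1 turned to -0.18 and -0.36, and both passed lower. RPL39L held 8.93 and 8.71 CPM in control, 10.9 and 10.7 CPM under SRPIN340, and 14.1, 15.0 and 15.2 CPM in acidosis, with a log2 fold change of 0.74 ± 0.14 (SE, edgeR adjusted p = 0.00102), which became 0.17 and did not pass with total counts (edgeR adjusted p = 0.301). Of the 3 paralogs that passed higher, RPL22L1 was the 1 that still did under that scaling, at 0.75.

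RPL22L1, which the protein of RPL22 is known to repress in mice, was the paralog with the start tract and the 1 paralog that passed with a log2 fold change over 1. It held 6.41 and 9.58 CPM in control, 8.74 and 8.58 CPM under SRPIN340, and 22.9, 17.4 and 19.8 CPM in acidosis, with a log2 fold change of 1.33 ± 0.20 (SE, edgeR adjusted p = 2.69e-04), and its acidosis samples were all above the others. RPL3L, a paralog known from muscle, was near the detection limit, with estimated counts of 7.49 and 6.07 in control, 2.31 and 1.55 with SRPIN340, and 28.7, 7.48 and 2.14 in acidosis. Its high value came from acidosis replicate 1, and it did not pass in acidosis (edgeR adjusted p = 0.0676). RPL10L, an intronless copy of RPL10 known from testis, had 0 counts in all 7 samples, which allows up to 3 counts in a library and covers counting error only.

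Relative to its main gene, each of 5 paralogs was lower in acidosis by mean, and RPL3L had too few counts for its ratio to be read. A ratio within a sample hardly depends on the scaling of libraries. With 0.5 CPM added to each level, the log2 ratio of RPL7L1 to RPL7 was -0.28 and -0.12 in control, -0.43 and -0.33 under SRPIN340, and -1.61, -1.57 and -1.57 in acidosis, a difference of -1.38 between acidosis and control. For RPL36AL to RPL36A the difference was -0.99, with control samples that lay far apart at -0.37 and -1.21. RPL39L to RPL39 differed by -0.93 and RPL26L1 to RPL26 by -0.79. In these 4 pairs the groups did not overlap, and the exact two-sided permutation p of each was 0.2, the smallest that 2 against 3 samples allow (0.3 after Benjamini-Hochberg adjustment over 6 pairs). Among single genes, 5859 of 14863 tested lay below control without overlap in acidosis, a count of levels and not of ratios. All 77 main genes were higher in acidosis (median 1.22), while the median tested gene lay at -0.052. An unchanged gene set over a main gene would therefore also give a lower ratio. The lower ratios are not read as a trait of the paralogs. The difference for RPL36AL was -0.57 without control replicate 1 and -1.41 without control replicate 2. The ratio of RPL22L1 to RPL22 differed by -0.34, with groups that overlapped (exact permutation p = 0.4), and by -0.63 or -0.056 without control replicate 1 or 2. For RPL3L, whose ratio is set in large part by the added 0.5 CPM, the value was -0.88 (exact permutation p = 0.4), and it was -0.47 with 0.1 CPM added, -1.31 without acidosis replicate 1 and -0.42 without acidosis replicate 3. Taken from the means with nothing added, RPL3L was instead at 0.108 CPM per kilobase beside 659 for RPL3 in control and at 0.394 beside 1983 in acidosis, a higher ratio in acidosis, so no direction is given for it.

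With SRPIN340, 4 of the 6 ratios lay below control without overlap, where the smallest exact permutation p possible is 0.333. The values were -0.18 for RPL7L1, -0.40 for RPL26L1 and -0.54 for RPL36AL. The fourth was RPL3L at -0.67, whose counts were too few for its ratio to be read, so no direction is given for it. Among single genes, 3988 of 14863 tested lay below control without overlap in this contrast, again a count of levels and not of ratios. Over so few pairs the count is not read as a result about the paralogs. The value of RPL36AL was -0.13 without control replicate 1 and -0.96 without control replicate 2, and that of RPL7L1 was -0.26 and -0.10 in the same order. The ratios of RPL22L1 and RPL39L differed by -0.018 and 0.030 and overlapped with control.

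**Figure D4:**
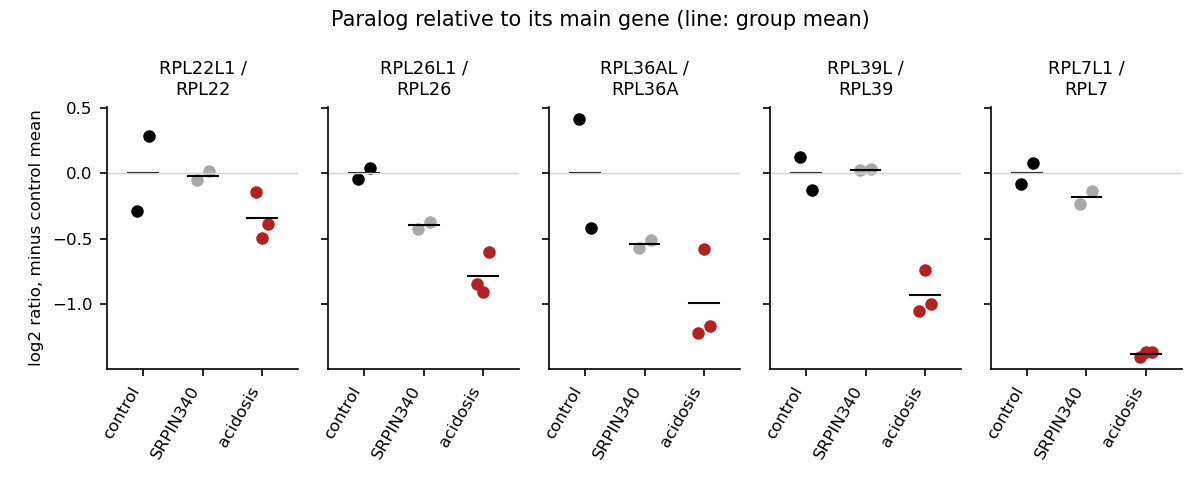
Log2 ratio of each paralog to its main gene in every sample (points), with the mean of the control samples taken as 0 and black lines giving group means; RPL3L is left out because its counts are near 0. In acidosis the means lie between -0.34 (RPL22L1) and -1.38 (RPL7L1).

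Per kilobase of the canonical transcript, paralogs were the minor form in every pair and group. Mean levels in control were 115 CPM per kilobase for RPL7L1 and 483 for RPL7, 189 for RPL36AL and 303 for RPL36A, and 60.1 for RPL26L1 and 1419.9 for RPL26. In acidosis they were 82.0 and 896, 249 and 778, and 69.9 and 2830.2 in the same order. The 7 paralogs together held 0.0831% ± 0.0015 of counts in control (SD, n = 2), 0.0818% ± 0.00010 with SRPIN340 (SD, n = 2) and 0.0492% ± 0.00082 in acidosis (SD, n = 3). Most of that came from RPL7L1: the other 6 held 0.0221% ± 0.00049 in control and 0.0201% ± 0.00054 in acidosis. In TMM-scaled CPM the sum of the 7 was 706 ± 8.9 in control and 623 ± 7.4 in acidosis, and that of the 6 without RPL7L1 was higher in acidosis, at 254 ± 9.4 against 188 ± 3.1 (SD, n = 3 and 2). RPS19BP1, the member that is no ribosomal protein, had a log2 fold change of 0.15 ± 0.16 (SE) in acidosis and did not pass (edgeR adjusted p = 0.433).

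With SRPIN340 the main genes lay close to control. Of the 77, 71 were fitted higher than control, against 50.4% of all tested genes, and the fitted values ran from -0.095 to 0.44 on the log2 scale around a median of 0.18. In edgeR 3 passed, all higher, against 0.767% of all tested genes, and 0 passed lower, against 1.53%, or higher by a log2 fold change over 1, against 0.128%. At an unadjusted p under 0.05, 29 were higher, against 8.15% of all tested genes, and 0 were lower, against 9.48%. DESeq2 passed 11 higher, against 2.15% of all tested genes.

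RPL17, at the tunnel exit, held 1044 and 1086 CPM in control, 1334 and 1271 CPM under SRPIN340, and 2036, 1869.7 and 1959.5 CPM in acidosis. Both SRPIN340 samples lay above both controls, with a log2 fold change of 0.29 ± 0.062 (SE, edgeR adjusted p = 0.0483). RPL4, which lines the inner tunnel, held 1730.5 and 1613 CPM in control, 2077 and 1949.5 CPM under SRPIN340, and 4091, 4139.9 and 4029 CPM in acidosis, with a log2 fold change of 0.27 ± 0.058 (SE, edgeR adjusted p = 0.0498) for SRPIN340. RPS25, a small subunit protein that some viral internal ribosome entry sites require, held 272 and 280.1 CPM in control, 349.5 and 334 CPM under SRPIN340, and 741, 676 and 713 CPM in acidosis, with a log2 fold change of 0.31 ± 0.067 (SE, edgeR adjusted p = 0.0498) for SRPIN340. RPS27A and RPL13A came next by p, with log2 fold changes of 0.32 and 0.27, and did not pass (edgeR adjusted p = 0.0609 and 0.0651).

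The spread between the control samples was of similar size. Control replicate 1 was below control replicate 2 in 70 of the 77 main genes, with a median ratio of 1.11 between them, against 1.00 over all tested genes. Without control replicate 1 the median log2 fold change with SRPIN340 was 0.091 and 60 of 77 were fitted higher, and without control replicate 2 it was 0.27 and 76 were. These fits leave 1 control sample, so only their effect sizes are given. The spread of the acidosis samples enters the same fit. Without acidosis replicate 1 or 3, 0 of the 77 passed higher, against 0.54% and 0.51% of all tested genes. Without acidosis replicate 2, 7 passed higher, against 1.40%. Both SRPIN340 samples exceeded both controls in 51 of the 77, against 27.3% of all tested genes. Among paralogs 0 of 6 passed with SRPIN340, and 4 of the 6 were fitted lower.

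Compared directly with SRPIN340, the acidosis samples, which are the same as in the contrast to control, were higher in all 77 main genes. All 77 passed, against 32.8% of all tested genes, 41 exceeded a log2 fold change of 1, against 14.9%, and the median was 1.05. With total counts in place of TMM, 59 passed higher, against 15.8% of all tested genes, and 3 lower. The median was then 0.43, against -0.67 over all tested genes, and the gap between these medians was 1.10 under both scalings.

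Other mRNAs known to carry a TOP tract, most of them for translation factors, were compared in the same way. Of 18 further TOP mRNAs in acidosis, 16 passed higher, 2 lower, and 8 exceeded a log2 fold change of 1, against 32.5%, 34.2% and 14.4% of all tested genes, with a median of 0.89. EEF1A1, the factor that brings tRNA to the ribosome, held 8775 and 8988 CPM in control, 10497 and 10191 CPM under SRPIN340, and 24460.5, 23426 and 25160.4 CPM in acidosis, with a log2 fold change of 1.45 ± 0.047 (SE, edgeR adjusted p = 1.48e-08). PABPC1, which binds poly(A) tails, and EEF2, which moves the ribosome along, had log2 fold changes of 1.55 and 0.92. NPM1, a nucleolar chaperone, and EIF3E, a subunit of an initiation factor, were the 2 that fell, by 0.46 and 0.24 on the log2 scale. With total counts in place of TMM, 12 passed higher and 4 lower, against 16.2% and 55% of all tested genes, with EIF3F and HNRNPA1 turning to -0.23 and -0.24. With SRPIN340, 2 of the 18 passed higher, against 0.767% of all tested genes, EEF2 (0.37) and NAP1L1 (0.35).

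Of 13 regulators of TOP mRNAs, 8 passed higher in acidosis and 2 lower, against 32.5% and 34.2% of all tested genes. CNBP, an RNA-binding protein, had a log2 fold change of 1.97 ± 0.064 (SE, edgeR adjusted p = 1.57e-08), and EIF4E, which binds the mRNA cap, 1.71 on the log2 scale. The repressors of EIF4E, EIF4EBP1 and EIF4EBP2, had log2 fold changes of 1.32 and 1.34, and RHEB, an activator of mTOR, 1.20. LARP1, which binds the TOP tract, had a log2 fold change of 0.28 that turned to -0.30 with total counts in place of TMM, where 6 of the 13 passed higher and 6 lower, against 16.2% and 55% of all tested genes. MTOR itself fell by 0.77 on the log2 scale. Of the S6 kinases, RPS6KB1 fell by 0.31 and RPS6KB2 rose, with a log2 fold change of 0.94 that stayed higher at 0.36 with total counts (edgeR adjusted p = 0.0198). RPTOR, MLST8 and TIA1 did not pass. With SRPIN340, 0 of the 13 passed in edgeR, 1 being higher and 2 lower at an unadjusted p under 0.05, against 8.15% and 9.48% of all tested genes.

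Chaperones that escort single ribosomal proteins were the last list. Of 6 in acidosis, GRWD1, a partner of RPL3, passed higher, at 0.53 ± 0.10 (SE), and 3 passed lower, against 32.5% and 34.2% of all tested genes. HEATR3, which carries RPL5, held 50.0 and 48.9 CPM in control, 46.6 and 50.4 CPM under SRPIN340, and 11.6, 9.09 and 12.04 CPM in acidosis, with a log2 fold change of -2.18 ± 0.13 (SE, edgeR adjusted p = 3.97e-07). PDCD2, a partner of RPS2, held 102 and 107 CPM in control, 103 and 100.4 CPM under SRPIN340, and 38.7, 40.2 and 36.8 CPM in acidosis, with a log2 fold change of -1.43 ± 0.079 (SE, edgeR adjusted p = 2.92e-07). TSR2, which binds RPS26, fell by 0.50, and PDCD2L and BCCIP did not pass. The median of the 6 was -0.32, against -0.052 over all tested genes. With total counts in place of TMM, GRWD1 was at -0.044 and did not pass, and the other 5 passed lower, against 55% of all tested genes.

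In the 300 bases around the RefSeq start, 250 before and 50 after, 3 further letter strings were searched on both strands. CCGGAAG, a core of ETS family sites, was present in 35.5% of main genes with an entry and in 20.5% of other tested genes. GGGCGG, a GC box, was present in 58.1% and 76.0%, and AAGATGGC, a YY1-like core, in 9.68% and 5.75%. In the 1872 other tested genes whose mean level was 100 CPM or more the shares were 22.8%, 81.9% and 9.40% in the same order, so that for AAGATGGC the main genes lay close to genes of such levels. In that same class the median log2 fold change in acidosis was 0.66 for 173 genes with the start tract and 0.54 for those without, beside 1.28 and 1.18 for the main genes. The 2 sets differ in level. By the mean of all 7 samples, 1759 other tested genes lay at 100 to 300 CPM, against 5 main genes, and 41 and 31 main genes lay at 300 to 1000 and over 1000 CPM. Over 1000 CPM on that mean, which includes the acidosis samples, other genes and main genes both had a median of 1.24. Grouped by the SRPIN340 samples, which are no part of the contrast, they had 0.33 and 1.00 over 1000 CPM.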

How the data were processed

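Poly(A) RNA-seq libraries of 7 HEK-293 samples were analysed. The authors trimmed reads, quantified transcripts with Salmon on Gencode GRCh38.p13 and used tximport for gene sums. They deposited estimated counts, fractional in part and without normalization between libraries. The processing notes list Trimmomatic 0.39, Trim Galore 0.6.6 and Salmon 1.5.1. The tximport option is not given in the sources used here. Symbols and coordinates came from GENCODE 44 by Ensembl identifier (19977 of 19978 matched), and start sequences from RefSeq on GRCh38.p14, of which 62 of 77 main genes had an entry.

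The counts, after rounding, entered the quasi-likelihood test of edgeR 4.0.16 under R 4.3.3 (TMM, filterByExpr, glmQLFit and glmQLFTest), with all 7 samples in 1 fit and Benjamini-Hochberg adjustment over 14863 genes. Standard errors were taken from the test statistic. The tests were checked on simulated counts. DESeq2 1.42.0, other scalings, filters, a replicate block and left-out replicates were alternatives. Ratios were tested by exact permutation with scipy 1.17.1. The members and the gene lists were chosen with earlier results of these data known. Genes named were the paralogs with their main genes, the 5 highest and 5 lowest of each subunit in acidosis at a mean level of 10 CPM or more, the 5 smallest p with SRPIN340, up to 20 members with the largest change over 1 on the log2 scale, and members of the lists. Of these, those not given in a sentence are drawn in the plot of fold changes, apart from a few that are counted in the totals but not reported singly here. Library totals of 13615944 to 24110439 rounded counts limit precision for genes with few counts.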

Additional observations from a re-analysis of the deposited data

How the results depend on the processing

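The 77 main genes passed higher in acidosis under every alternative run except total-count scaling (72) and the limit of a log2 fold change over 1 (56). Among all members, 1 passed lower in acidosis, 4 did with total counts and 0 with a log2 fold change over 1 also required. With total counts RPL11 (-0.040), RPL13A (-0.12), RPL14 (-0.13), RPL26L1 (-0.36), RPL36AL (-0.18) and RPS19BP1 (-0.43) reversed, and RPS19BP1 with control replicate 1 left out (-0.052, against 0.36 without control replicate 2). The 3 members higher with SRPIN340 (0.767% of all tested genes) became 11 with DESeq2 (2.15%), 9 with total counts (1.08%) and 1 with RLE size factors (0.612%). They became 0 with the fold limit (0.128%) or with the replicate number as a block (0.087%), where hardly any tested gene passed higher. With 1 acidosis replicate left out they ranged from 0 to 7, the 7 coming without acidosis replicate 2 (1.40%). Against SRPIN340, 82 members passed higher in acidosis and 43 with the fold limit, and the 1 lower became 0 with the fold limit and 5 with total counts. The large to small subunit log2 ratio went from -0.088 to 0.018 in acidosis and from 0.006 to -0.078 with SRPIN340 when taken as the median over genes. On that median the acidosis and control samples overlapped. The share of counts in main genes, acidosis minus control, went from 2.98 to 4.53 percentage points with the top 100 other genes of each sample left out of the total. The ratio of RPL3L to RPL3 with SRPIN340 went from -0.67 to -1.24 with a pseudocount of 0.1 CPM. The cause of these shifts was not tested. Deviations of same-numbered samples correlated between -0.15 and 0.07. The 2 samples of control, and those of SRPIN340, deviate from their mean as mirror images. These correlations therefore cannot show whether same-numbered samples shared a batch. All 77 main genes still passed higher in acidosis with the block. Depth limits RPL3L and RPL10L.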

Other observations

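The replicate spread of the main genes ran in a common direction. Acidosis replicate 2, which had the lowest total count, was the lowest of the 3 acidosis samples in 70 of the 77, and SRPIN340 replicate 1 was above replicate 2 in 73. The median coefficient of variation was 7.24% in control and 6.31% in acidosis. RPL36A had the widest spread, with 166 and 295 CPM in the control samples and, in acidosis, 697, 429 and 651 CPM, and RPS21 and RPS29 had standard errors of 0.20 each on the log2 scale. These genes were chosen after their values were seen.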
